A study of Apis mellifera with 6 samples.

Results

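Hexamerins, vitellogenin and the major royal jelly proteins are secreted proteins of the honey bee (Apis mellifera), and 8 of their genes were among the 10013 genes measured by poly(A) RNA sequencing of midgut. The genes were taken by symbol, as every row named Hex70, Hex110, Mrjp with a digit, or Vg, letter case ignored. They comprised 4 hexamerin genes (Hex70a, HEX70b, Hex70c and Hex110), the vitellogenin gene Vg and 3 royal jelly protein genes (Mrjp4, Mrjp7 and Mrjp8), and all 8 had rows that could be tested. Bees were fed sucrose solution for 24 hours. The treated group (3 samples, replicates 2, 3 and 4) received 24 µM tunicamycin with 0.5% DMSO, and the control group (3 samples, replicates 1, 2 and 3) received 0.5% DMSO, the solvent, without it. Tunicamycin blocks the first step of N-glycosylation, the attachment of sugar chains to proteins entering the secretory pathway. Strain, caste, age, the number of bees behind a sample and the cages or colonies of the replicates were not stated in the labels. Each p-value therefore rests on the spread between these 6 samples alone, and that spread may be technical.

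Hexamerins are storage proteins that the larval fat body releases into the hemolymph and that are drawn on as amino acid reserves during metamorphosis. Vitellogenin is the yolk protein precursor, made in the fat body, and in worker bees it is tied to nursing, antioxidant defence and lifespan. The major royal jelly proteins arose in bees from a relative of the Yellow proteins, and most of them are made in the hypopharyngeal glands of nurse workers and fed to larvae. None of the 3 families is classed as a digestive protein of the midgut, and the tables do not say which cells of the dissected tissue held the transcripts.

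In the reference annotation (RefSeq, Amel_HAv3.1), 14 genes carry a name of these families. Of its 9 Mrjp genes, 6 (Mrjp1, Mrjp2, Mrjp3, Mrjp5, Mrjp6 and Mrjp9) were not analysed here. All 9 lie in 1 run of 14 annotated genes that begins with the Yellow-family gene Y-e3 and ends with Y-h, and in that run Mrjp7 and Mrjp8 are direct neighbours. Hex70a, HEX70b and Hex70c form a run of their own with 1 long non-coding RNA gene, between HEX70b and Hex70c.

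Library depth was similar across samples, with between 22763496 and 26278751 reads over the listed genes. The 2 alpha-glucosidase genes used as midgut markers, Hbg2 and AGLU2, together took between 4.73% and 6.60% of the reads in controls and between 3.08% and 4.92% in tunicamycin samples. Control 1 stood apart from the other controls: 9.63% of all genes lay 2-fold or more from the mean of controls 2 and 3, whereas the same share for each of the other 5 samples against the rest of its group lay between 4.58% and 6.89%. For the 8 genes, group differences are therefore given with and without control 1. Levels are given as normalized reads, that is, reads of a gene divided by the size factor of its sample. Since transcript lengths were not at hand, they are compared between samples and not between genes. A gene's 3 values in a group are listed in replicate order, 1 to 3 for controls and 2 to 4 for tunicamycin.

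The 8 genes together took a small share of each library, from 0.00952% (95% Wilson interval 0.00913 to 0.00993) of the reads in control 1 to 0.0156% (0.0151 to 0.0161) in control 3. In tunicamycin samples the share ran from 0.0102% in replicate 3 to 0.0151% in replicate 4. The 4 hexamerin genes summed to between 684 and 822 normalized reads in controls and between 434 and 720 in tunicamycin samples. For the 3 royal jelly genes these sums lay between 1529 and 2984, and between 1905 and 2748. The groups overlapped in both sums.

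None of the 8 genes passed a Benjamini-Hochberg adjusted p of 0.05 over all genes in limma, while 1.13% of the 10013 genes did. The count was 0 of 8 in edgeR, where 0.939% of genes passed, and 0 of 7 in DESeq2. DESeq2 gave Mrjp4 no adjusted p and called 5.27% of the 9790 genes that had one. An unadjusted limma p under 0.05 was reached by 1 of the 8, Hex70a, against 15.5% of all genes; the number was also 1 in edgeR and in DESeq2, against 15.8% and 15.9%. The direction was mixed, with 5 genes lower and 3 higher in tunicamycin and a median log2 fold change of -0.09, beside 0.00 over all genes. In 7 of the 8 genes the 95% interval of the log2 fold change included 0, and the narrowest of these 7, that of Hex110, ran from 0.646-fold to 1.49-fold. Without control 1 the median was -0.45 and 7 of the 8 were lower, beside a median of -0.0047 and 5070 lower among the 10013 genes. Control 1 was the lowest control for all of the 8 genes but Hex70a, so leaving it out moves their differences downward. Again none passed the adjusted threshold, beside 2.02% of all genes in that fit. An unadjusted limma p under 0.05 was then reached by 3 of the 8 (Hex70a, Hex70c and Mrjp8), against 18.4% of all genes. The same 3 genes had groups that did not overlap without control 1, as did 38.6% of all genes in either direction. The differences of HEX70b, Hex110 and Mrjp4 were then log2 -0.32, -0.19 and 0.21.

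**Figure D1:**
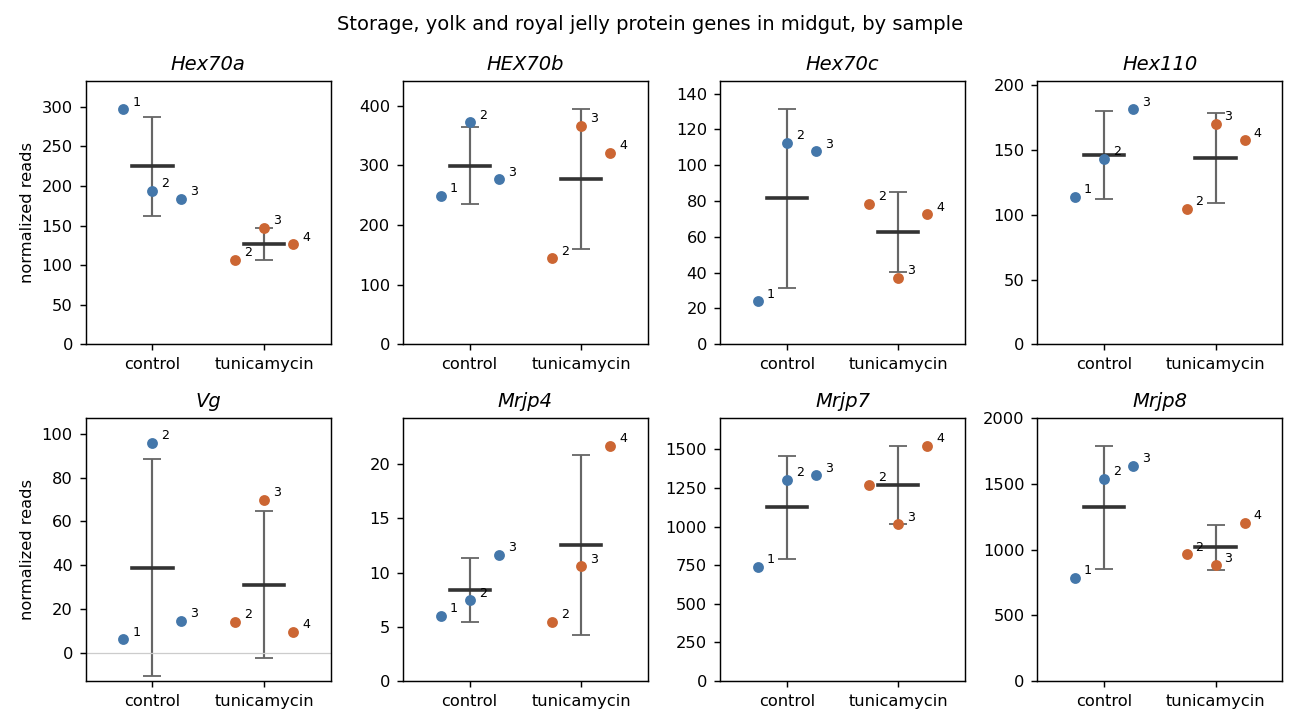
Normalized reads (vertical axes, linear) of the 8 genes in the 3 control and the 3 tunicamycin samples; points are samples with their replicate numbers, horizontal bars are group means and error bars are 1 SD. Hex70a is the single gene whose groups do not overlap, with controls from 184 to 297 and tunicamycin samples from 107 to 147.

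Among the hexamerins, Hex70a encodes a hexamerin subunit that in the honey bee is also made in adults. It stood at 297, 194 and 184 normalized reads in controls against 107, 147 and 126 under tunicamycin. Every tunicamycin sample lay below every control, and the highest control was control 1. Such a split downward was seen in 10.7% of all genes, so that 1 of 8 is close to the background. The difference was -0.80 on the log2 scale (SE 0.23, 95% interval -1.35 to -0.25; limma adjusted p = 0.176), or 0.575 times the control level. In a bulk tissue, fewer cells of a type and less RNA per cell cannot be told apart behind such a value. Without control 1 the difference was -0.58 (SE 0.19; limma adjusted p = 0.194), and the groups still did not overlap. DESeq2 gave an adjusted p of 0.0563, the lowest of the 15 alternatives, whose range reached 0.524.

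HEX70b, a neighbouring gene for another hexamerin subunit, did not share that split. It stood at 249, 372 and 277 normalized reads in controls. Under tunicamycin it stood at 144, 366 and 321. Tunicamycin 2 was lowest of the 6, and the other 2 treated samples lay inside or near the control range. The log2 difference was -0.20 (SE 0.36, interval -1.03 to 0.63; limma adjusted p = 0.830), and it became 0.21 when tunicamycin 2 was left out.

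Hex70c, a further subunit gene of the same run, varied most among the hexamerins. Its values were 24.0, 113 and 108 in controls against 78.5, 37.0 and 72.6 under tunicamycin. Control 1 was lowest, at 0.218 times the mean of controls 2 and 3, and tunicamycin 3 was next. With all samples the log2 difference was -0.16 (SE 0.62, interval -1.61 to 1.29; limma adjusted p = 0.930). Without control 1 it was -0.88 (SE 0.36, interval -1.75 to -0.0034, limma adjusted p = 0.271). Every tunicamycin sample then lay below controls 2 and 3, which held for 19% of all genes. As control 1 was the lowest sample, leaving it out favours such a split, and the share covers all genes, whichever control was lowest. Left out in turn, control 2, control 3 and tunicamycin 3 gave 0.22, 0.18 and 0.18 instead.

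Hex110, the larger hexamerin, lies outside the Hex70 run. It stood at 114, 143 and 182 in controls against 105, 170 and 157 under tunicamycin. The groups overlapped almost fully, with means of 146 ± 33.9 and 144 ± 34.8 (SD, n = 3 each). The log2 difference of -0.03 (SE 0.26; limma adjusted p = 0.976) had an interval from -0.63 to 0.58, and it became 0.14 without control 3 and 0.19 without tunicamycin 2.

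Vg differed more within groups than any other of the 8 genes. It stood at 6.0, 95.9 and 14.6 normalized reads in controls against 14.2, 69.8 and 9.43 under tunicamycin. In each group 1 sample held most of the reads, control 2 and tunicamycin 3, whose values were deposited in the same table. Counting error was far smaller than this gap: the exact Poisson interval, which covers counting error alone, ran from 78.2 to 116 in control 2 and from 8.15 to 24.0 in control 3. The coefficient of variation was 128% in controls and 108% in tunicamycin, beside 15.6% and 18.4% from counting alone. The log2 difference between groups was 0.03 (SE 1.08), and its interval, from -2.50 to 2.56, spans 0.176-fold to 5.89-fold (limma adjusted p = 0.993). Its sign changed in 8 of 15 alternatives, edgeR and DESeq2 among them, and was -0.80, -0.22 and -0.80 without control 1, control 3 and tunicamycin 3, so no direction can be given for Vg.

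**Figure D2:**
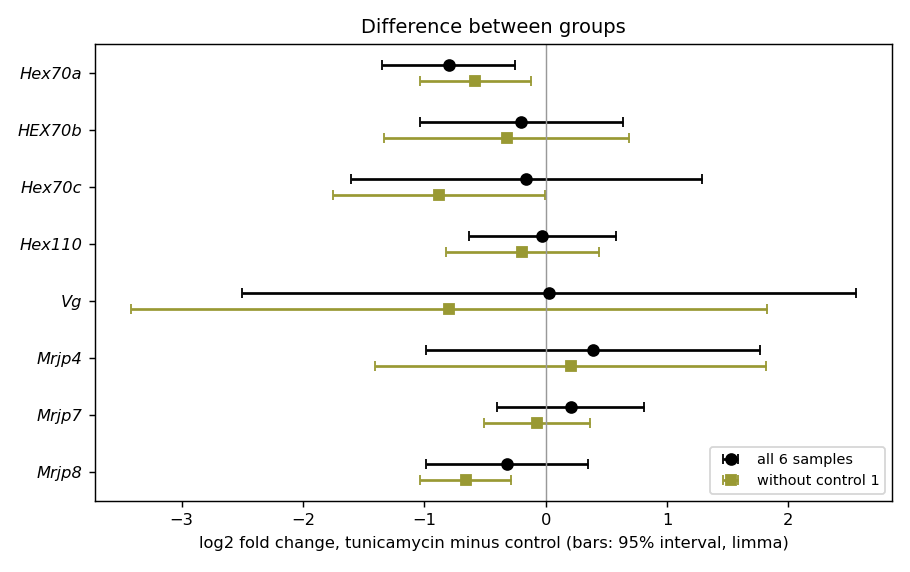
Log2 fold change of each gene, tunicamycin minus control (horizontal axis), with its 95% interval from limma, over all 6 samples (circles) and without control 1 (squares). The interval of Hex70a lies below 0 in both fits, those of Hex70c and Mrjp8 only without control 1, and that of Vg is the widest, from -2.50 to 2.56 over all samples.

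Of the royal jelly genes, Mrjp8 belongs to the less studied members of the family, and its product has been found in bee venom. It stood at 785, 1540 and 1640 normalized reads in controls against 964, 879 and 1204 under tunicamycin. Control 1 was lowest of all, while controls 2 and 3 lay above every tunicamycin sample. With all samples the log2 difference was -0.32 (SE 0.29, interval -0.99 to 0.35; limma adjusted p = 0.634). Without control 1 it was -0.66 (SE 0.15, interval -1.03 to -0.28), with an unadjusted limma p of 0.00514 and a limma adjusted p of 0.113. The split of controls 2 and 3 from all tunicamycin samples is again one that 19% of all genes showed. Leaving out the lowest sample favours such a split, and that share covers all genes, whichever control was lowest.

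Mrjp7, its neighbour, encodes a protein found in royal jelly. Its values were 738, 1303 and 1333 in controls against 1271, 1015 and 1522 under tunicamycin. Control 1 was again lowest, and the other 5 samples overlapped. The log2 difference was 0.20 (SE 0.26, interval -0.40 to 0.81; limma adjusted p = 0.745) with all samples and -0.07 (SE 0.18; limma adjusted p = 0.863) without control 1.

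Mrjp4 lay near the lowest level that the tables list, where the smallest mean of a gene was 9.89. It stood at 6.0, 7.44 and 11.7 in controls against 5.45, 10.6 and 21.7 under tunicamycin, which correspond to between 5 and 23 reads. In controls its coefficient of variation (35.1%) was close to that of counting alone (34.0%), whereas under tunicamycin it was 66.0% beside 28.1% from counting. The log2 difference of 0.39 (SE 0.59, interval -0.98 to 1.77; limma adjusted p = 0.788) turned to -0.07 without tunicamycin 4. How reads that match more than 1 royal jelly gene were counted is not given in the sources used here, so the split of reads between members of this family is uncertain.

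The 2 neighbouring royal jelly genes were also set beside each other within each sample, where size factors cancel. The ratio of Mrjp7 to Mrjp8 was 0.940, 0.846 and 0.813 in controls against 1.32, 1.15 and 1.26 under tunicamycin. Every tunicamycin sample lay above every control, and control 1, in which both genes were lowest, was the highest of the controls in this ratio. On the log2 scale the ratio was -0.21 ± 0.11 in controls and 0.31 ± 0.10 in tunicamycin (SD, n = 3 each), a difference of 0.52. Of the 28 ratios that the 8 genes form, this was the single one whose groups did not overlap, and without control 1 the ratio of Hex70c to Mrjp7 was split as well, which made 2 of 28. Among all other genes, the ratio to Mrjp7 did not overlap in 6.95% and the ratio to Mrjp8 in 10.8%, so 1 of 28 is not above either share. The share was 0.0999% for Vg, 1.34% for Hex70c, 2.09% for Mrjp4, 4.82% for HEX70b and 5.93% for Hex110. No single share is thus a reference for all 28 ratios. No such share was worked out without control 1. For Hex70a, whose own groups did not overlap, the share with all samples was 66%, while 0 of its 7 ratios to the others of the 8 genes were split. The log2 differences of these 7 ratios lay between -1.19 (to Mrjp4) and -0.48 (to Mrjp8). Their overlap therefore does not show that the other genes changed with Hex70a. The ratio of Mrjp7 to Mrjp8 was picked after its values were seen, so no test is given for it. With any 1 sample left out the difference lay between 0.48 and 0.58.

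**Figure D3:**
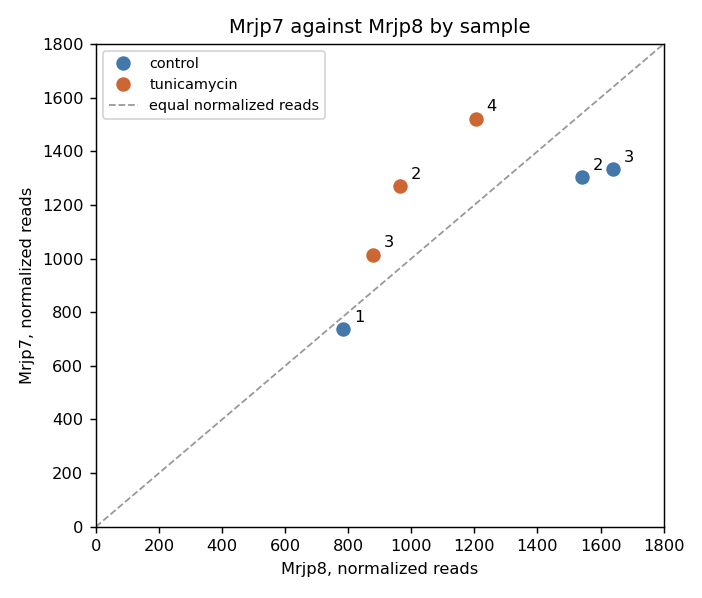
Normalized reads of Mrjp7 (vertical axis) against Mrjp8 (horizontal axis) in each sample, numbered by replicate; the dashed line marks equal values. The 3 control samples lie below the line, at ratios from 0.813 to 0.940, and the 3 tunicamycin samples above it, at ratios from 1.15 to 1.32.

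Spread between replicates was high for most of these genes. On the log2 scale, the SD within groups was at least 2 times the SD that limma's trend gives for genes of that level in 5 of the 8 genes (Vg, HEX70b, Hex70c, Mrjp7 and Mrjp8), against 12.5% of all genes. The multiple was 3.29 for Vg, 2.83 for Hex70c, 2.65 for Mrjp8, 2.58 for HEX70b and 2.37 for Mrjp7. It was 1.36 for Hex110, 1.26 for Hex70a and 0.982 for Mrjp4. Without control 1 the number was 2 of 8, Vg and HEX70b, against 13.7% of all genes, and the multiples of Hex70c, Mrjp7 and Mrjp8 were 1.72, 1.73 and 1.39.

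**Figure D4:**
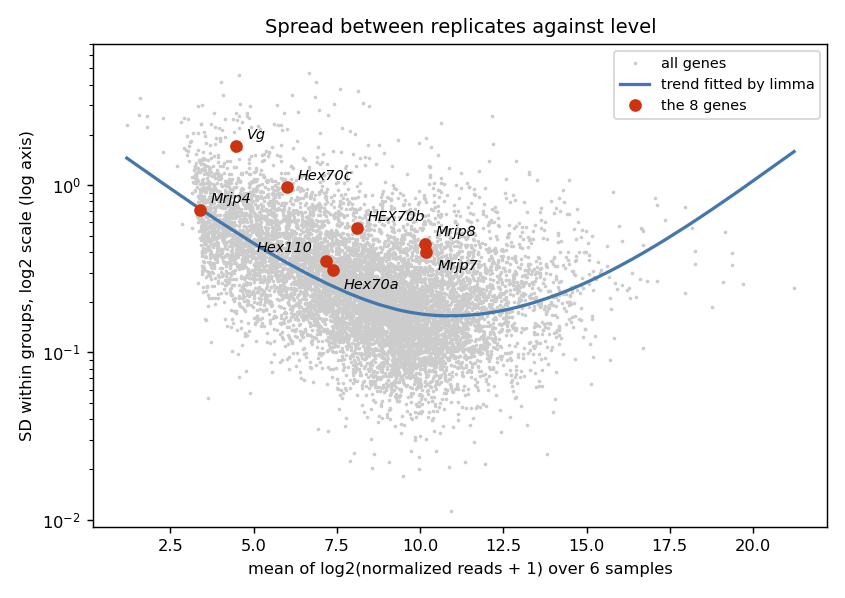
SD within groups on the log2 scale (vertical axis, logarithmic) against the mean of log2(normalized reads + 1) over the 6 samples (horizontal axis) for all 10013 genes (grey), with the trend fitted by limma (line) and the 8 genes (red). Vg, at 3.29 times the trend, is farthest above it, and Mrjp4, at 0.982 times, lies on it.

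The samples did not shift all 8 genes together. Control 1 was at least 2-fold below the mean of controls 2 and 3 in Vg (0.109 times), Hex70c (0.218 times) and Mrjp8 (0.494 times), which is 3 of 8 against 6.82% of all genes, while it held the highest value of Hex70a (1.57 times). Tunicamycin 2 was at least 2-fold below the rest of its group in Vg, HEX70b and Mrjp4, again 3 of 8, while 6.16% of all genes lay that far away in either direction. Tunicamycin 3 lay that far from its group in Vg and Hex70c (6.89% of all genes) and tunicamycin 4 in Vg and Mrjp4 (5.11%). In controls 2 and 3 it was Vg alone, with 4.79% and 4.58% of all genes, so that Vg counted in all 6 samples. The 7 troponin genes on the list of visceral muscle markers were also lowest in control 1 when summed, at 5014 normalized reads, with up to 8410 in the other controls and between 6388 and 8487 in tunicamycin samples. By single gene, 4 of the 7 were lowest of the 6 samples in control 1. None of the 7 was at 0 in any sample. Of the 9 marker and pathway lists, 7 had their lowest control sum of normalized reads in control 1. Those of enterocyte, enteroendocrine and nervous system markers were among them. Such sums follow the genes with the most reads. In the hypopharyngeal gland list, Hbg3 was lowest of the controls in control 1 (1168), whereas Def1 (296) and Obp13 (84.0) were highest there. Gene by gene, 6 of 10 hormone and nutrient genes and 2 of 5 nervous system markers were lowest of all samples in control 1. In every other list but visceral muscle, 0 genes were. The share of all genes lowest in control 1 was not counted. The part of cell content in the low control 1 values was not tested.

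**Figure D5:**
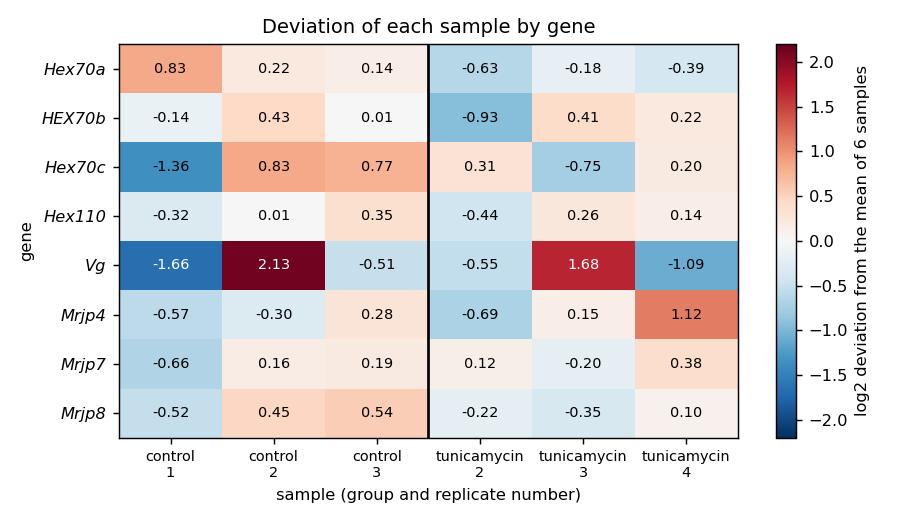
Deviation of each sample (columns) from the mean of the 6 samples, in log2 units, for each of the 8 genes (rows); red is above and blue below the mean, and the vertical line separates the groups. Control 1 is low for Hex70c (-1.36) and Vg (-1.66) and high for Hex70a (0.83), and Vg is high in control 2 (2.13) and tunicamycin 3 (1.68).

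The genes with the most similar pattern over the 6 samples were looked up among 213 other genes with a symbol and a mean of at least 100 normalized reads, by Pearson's r on the log2 scale. Over 6 samples, with every gene read from the same libraries, r is given as a description, and it includes control 1 unless stated. The 97% of all genes that carry only a LOC number were not searched. Each r is among the highest of 213 values, so high values come in part from the choice. For Hex70c the closest was Br-c, the broad complex gene of the ecdysone response (r = 0.99), followed by the mitochondrial ribosomal protein gene mRpL16 and by Fem. Br-c stood at 200, 650 and 665 in controls against 573, 315 and 504 under tunicamycin, so that control 1 and tunicamycin 3 were its lowest samples too. Br-c also led for Mrjp7 (r = 0.91), before RpLP1 and nAChRa3. Without control 1 these r were 0.69, 0.57 and 0.47, whereas that of Br-c and Hex70c was 0.99. For Mrjp8 the closest were Ndufb2, of respiratory complex I (r = 0.97), mRpL16 and the cytochrome c oxidase gene Cox6b1. Hex70a was closest to Cdc37, a co-chaperone of HSP90 (r = 0.98), the heme oxygenase gene Ho and SPG11. HEX70b was closest to the gustatory receptor gene Gr10 (r = 0.98), Rfwd3 and Pet117. Vg was closest to rtGEF (r = 0.95), Rnft2 and osp. Mrjp4 was closest to PDHB, of the pyruvate dehydrogenase complex (r = 0.95), and the cuticular protein genes CPF2 and CPF1, and Hex110 to Tpx-4 (r = 0.91), Coq7 and PDHB.

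Genes of the same tissues were few by symbol. Of the list for hypopharyngeal gland and royal jelly, 3 genes were matched and none passed in limma. Hbg3, an alpha-glucosidase that this gland secretes, stood at 1168, 1609 and 1736 in controls. Under tunicamycin it stood at 951, 989 and 599. The groups did not overlap, and 10.7% of all genes were split downward in this way. The log2 difference was -0.84 (SE 0.23, limma adjusted p = 0.163). Hbg3 passed in DESeq2 (adjusted p = 0.0278), which called 5.27% of the genes that had an adjusted p. The antimicrobial peptide gene Def1, whose product is a component of royal jelly, was at log2 -0.63 (SE 0.87), with its highest value, 296, in control 1, and at 0.40 without it. The odorant-binding protein gene Obp13 was at log2 -1.35 (SE 1.29), and ranged from 3.27 to 111 within the tunicamycin group. Its difference was -0.098 in edgeR, -0.090 in DESeq2, -0.68 without control 1, -2.90 without tunicamycin 3 and -0.54 without tunicamycin 2.

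Of the fat body and hemolymph list 4 genes were matched and 0 passed in limma, edgeR or DESeq2 (which gave A4 no adjusted p), with 0 at an unadjusted limma p under 0.05. Tsf1, the iron carrier transferrin, stood at 378, 468 and 179 in controls against 427, 564 and 243 under tunicamycin (log2 0.30, SE 0.42). Its lowest samples were control 3 and tunicamycin 4, and the groups overlapped. PPO, the prophenoloxidase of hemocytes, was at log2 -0.22 (SE 0.25), the peptidoglycan recognition gene Pgrp-s2 at log2 -0.89 (SE 0.41) and the gene A4 at log2 1.16 (SE 0.57), with at most 18.5 normalized reads. Y-f, the single matched relative of the Yellow family, was at 792 in control 1 and at 180 and 140 in controls 2 and 3. It was at 336, 98.3 and 160 under tunicamycin, and control 1 was thus its highest sample, where Mrjp7 and Mrjp8 had their lowest. Its log2 difference without control 1 was 0.14.

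Juvenile hormone and ecdysone, together with insulin signalling, are known to act on vitellogenin and hexamerin genes of insects. Of 10 matched genes of hormone and nutrient signalling, none passed in limma. An unadjusted limma p under 0.05 was reached by 3 (Jhe, E75 and Akhr), against 15.5% of all genes. The difference was positive in 8 of the 10 and negative in 2. The median was log2 0.29, beside 0.00 over all genes, of which 50.2% had a positive difference. Without control 1, 3 of the 10 were negative and the median was log2 0.21. The positive differences of Br-c and ILP-2 changed sign in 7 and 6 of 15 alternatives, and the negative one of Usp in 3. The groups did not overlap for 2 of the 10 genes, with 21.8% of all genes split in either direction. Jhe, juvenile hormone esterase, which breaks the hormone down, stood at 2571, 3719 and 3009 in controls against 1270, 2116 and 948 under tunicamycin. E75, an ecdysone-induced nuclear receptor, stood at 14851, 20670 and 21134 in controls against 44224, 29192 and 36222 under tunicamycin. These 2 genes passed in DESeq2 (adjusted p = 0.0101 for Jhe and 9.98e-04 for E75), which called 5.27% of the genes that had an adjusted p. Their limma adjusted p were 0.128 and 0.110. Jhe passed in limma without tunicamycin 3 (adjusted p = 0.0422). The ecdysone receptor genes Ecr (log2 0.28, SE 0.18) and Usp (log2 0.00, SE 0.13) and the insulin-like peptide gene ILP-2 (log2 0.02, SE 0.35) had limma adjusted p of 0.511, 0.996 and 0.989. The gene for juvenile hormone acid methyltransferase, an enzyme of juvenile hormone synthesis (LOC724216, jhamt by its synonym), ranged from 95.9 to 417 within controls and from 105 to 656 within tunicamycin samples (log2 0.41, SE 0.73). E74 was at log2 0.35 (SE 0.17), the insulin receptor gene InR-2 at log2 0.29 (SE 0.29), Br-c at log2 0.02 (SE 0.48; -0.55 without control 1), and Akhr, the receptor gene for adipokinetic hormone, at log2 1.48 (SE 0.62) with between 4.00 and 31.7 normalized reads.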

How the data were processed

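In the 3 deposited tables the unit is a normalized signal, reads per gene over a size factor for each sample, as the values themselves show: 100% of them lie within 0.001 of a whole number of reads once divided by 1 constant per sample. For control 1 this constant is 0.999914 and rests on large values. Trimmomatic 0.36, STAR, Subread and DESeq2 appear in the submitters' processing notes, with no settings; the authors' genome build and strand setting are stated in no source used here, so overlapping and antisense genes can share reads. Groups came from the sample titles. Limma-trend (limma 3.58.1, R 4.3.3) was fitted to log2(value + 1) of all 10013 genes and 6 samples with group as the sole term; fold changes on that scale understate changes of low genes. Adjusted p-values (Benjamini-Hochberg) run over all genes. A filter on a mean of at least 1 removed no gene. As alternatives, whole reads went through DESeq2 1.42.0, limma-voom and the quasi-likelihood test of edgeR 4.0.16, beside other pseudocounts, filters, scalings, blocks and omitted samples. Scripts were tested on simulated data. The genes and lists were chosen with earlier results of these data known, and named genes are all members of those lists that matched by symbol or synonym, plus the 3 genes most alike to each of the 8. No protein or promoter sequences or transcript lengths were at hand, so the planned comparisons of levels per length and of sequences were not made.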

Additional observations from a re-analysis of the deposited data

How the results depend on the processing

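None of the 119 alternatives for the 8 genes gave a call, and 18 changed a sign. Among the 119 is DESeq2 for Mrjp4, which had no adjusted p and so could not give a call. The difference stayed negative in all 15 alternatives for Hex70a (-0.93 to -0.58) and for Mrjp8 (-0.79 to -0.13). The count of 113 called genes (106 higher, 7 lower) was 516 (401 and 115) with DESeq2. Samples of the same deposited table deviated together at r = 0.05, 0.15 and 0.05, and those of the same number at -0.12 and -0.10. The remaining pairs ran from -0.04 to 0.06, so 0.15, of control 2 and tunicamycin 3, was the highest. With 3 samples in a group these values cannot settle whether the tables pair samples, and neither pairing is used in the main fit. The replicate block by deposited table called 44 genes (41 and 3), and the replicate block by shared number, over 4 samples, called 4 by limma (all 4 higher, 0 lower, 1046 at an unadjusted p under 0.05). With 1 sample left out there were 20 to 202 calls (18 to 180 higher, 1 to 22 lower): 202 without control 1, 23 and 20 without controls 2 and 3, and 57, 99 and 32 without tunicamycin 2, 3 and 4. The cause was not tested. The number of the 8 genes at 2 times the trend SD was 2 with the block by number, 3 with the block by table and 2 to 5 with 1 sample left out. The number whose groups did not overlap was 1 to 3 with 1 sample left out, and 3 without control 1, where 38.6% of all genes did not overlap. These counts, the alternatives for the Mrjp7 to Mrjp8 ratio and the correlations without control 1 were chosen after seeing the data. The log2 fold change of Vg was -0.0011 with upper-quartile scaling, -0.33 with edgeR, -0.32 with DESeq2, -0.022 with limma-voom and -0.25 with the block by number. That block also gave -0.26 for Mrjp4, -0.21 for Mrjp7, 0.20 for Y-f, 0.27 for Def1, 0.048 for Obp13 and -0.63 for Br-c. Br-c was at -0.0067, -0.13 and -0.12 and ILP-2 at -0.012, -0.069 and -0.063 with upper-quartile scaling, edgeR and DESeq2, and Usp at 0.0024 with DESeq2. With 1 sample left out, log2 fold changes ranged from -0.80 to 1.10 for Vg, -0.46 to 0.21 for HEX70b, -0.88 to 0.22 for Hex70c, -0.072 to 0.84 for Mrjp4, -0.074 to 0.36 for Mrjp7, -0.19 to 0.19 for Hex110, -1.11 to 0.14 for Y-f, -1.53 to 0.40 for Def1, -0.11 to 0.63 for Tsf1, -0.25 to 1.065 for LOC724216, -0.090 to 0.091 for Usp, -0.55 to 0.32 for Br-c, -0.25 to 0.38 for ILP-2, -2.90 to -0.54 for Obp13 and -0.49 to 0.064 for Hbg2. Depth limits Mrjp4, which rests on between 5 and 23 reads a sample.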
